A study of Oryza sativa with 6 samples.

Results

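Genes described as proteases, or as protein inhibitors of proteases, were followed in developing rice seeds. A gene was taken as a member where its description in the authors' deposited table holds the word protease, proteinase, peptidase, oryzain, oryzasin or Bowman-Birk, and was dropped where the description names the proteasome, ubiquitin or an alpha-amylase/trypsin inhibitor. This gave 74 of the 91080 features of the table: 62 proteases, 11 cystatins and 1 Bowman-Birk inhibitor. The rule reads descriptions only, so a protease without a description, or without one of these words, is outside it. The members thus cannot be taken as all proteases of the seed. No measured value chose a member.

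Seeds were collected at 15 days after flowering (DAF), in the grain-filling stage, from a pair of near-isogenic rice lines grown in a paddy field. NIL-gaf1 carries the genotype labelled mutant and NIL-GAF1 the genotype labelled wild type, with 3 RNA-seq libraries of each. Sample titles name the lines gif2 and GIF2 in place of gaf1 and GAF1, and the labels do not say how these symbols relate or which locus differs. Nor do they give the background variety, or whether replicates stem from different plants. The p-values therefore reflect spread among these libraries, which may be technical. Library totals ran from 17236796 to 25402680 counts.

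Seeds store protein in the starchy endosperm and break it down at germination. Cysteine proteases of the papain family, among them the oryzains, act in vacuoles and in the mobilisation of storage protein. Cystatins are small proteins that block such enzymes by filling their active site; the first plant cystatins characterised, the oryzacystatins, came from rice seed. Bowman-Birk inhibitors block serine proteases such as trypsin, and aspartic proteases such as oryzasin act on proteins in seed vacuoles. Other proteases of the cell remove targeting peptides in chloroplasts and mitochondria, clear damaged organelle proteins or recycle short peptides.

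The libraries differed in make-up before any protease was considered. Starchy endosperm markers (glutelins, prolamins and the globulin of 19 kDa) took 0.397%, 7.06% and 21.1% of the counts in the mutant, always listed here as libraries 1, 2 and 3, and 34.4%, 41.0% and 36.4% in the wild type. All 14 of those tested were below every wild-type library in all 3 mutant libraries, beside 23.8% of all tested features. As lower, 1 of the 14 passed the test (7.14%, beside 15.4% of all tested features). Of the 16, 2 were at 0 in all mutant libraries and 1 in all wild-type libraries. Of 9 embryo and aleurone markers, 8 fell (88.9%, beside 15.4% of all tested features). The summed level of the 9 was 298.9 to 1611 normalized CPM (counts brought to one library size) in the mutant libraries and 3765 to 5012 in the wild-type ones. Of 6 green pericarp markers none passed, and their summed ranges overlapped (702 to 1356 against 854 to 1076). A count in bulk tissue cannot tell fewer cells of a type from less RNA per cell. Levels are given here as CPM normalized by the trimmed mean of M-values (TMM), so a change is relative to the typical gene; scaling to the library total instead moves the median of all 22937 tested features from 0.06 to 1.27 in log2.

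In NIL-gaf1 seeds, 11 protease genes rose, and 9 genes fell: 6 proteases, 2 cystatins and the Bowman-Birk inhibitor. The test was edgeR's quasi-likelihood test with Benjamini-Hochberg adjustment at 0.05 over 22937 tested features, of which 67 were members. The 11 that rose were 16.4% of the tested members, beside 15.8% of all tested features, and the 9 that fell were 13.4%, beside 15.4%. In either direction 20 members, or 29.9%, passed, beside 31.2% of all tested features. The median log2 fold change of the members was 0.03, within a range of -3.34 to 3.16, beside 0.06 over all tested features. As a whole these genes thus moved about as often as other genes, and the differences lie among the single members. In 28 of the 67 the lines did not overlap, 15 with the mutant above and 13 with it below, or 41.8% beside 49.0% of all tested features. With total-count scaling 53 of the members were called higher and 3 lower, beside 71.8% and 3.77% of all tested features. With storage protein and seed allergen features left out of that total, 38 were called higher and 5 lower, beside 43.9% and 6.97%. With the whole total, all 11 that rose were also called higher, while of the 9 that fell 3 were called lower, 5 in all had a negative value and 4 a positive one.

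**Figure D1:**
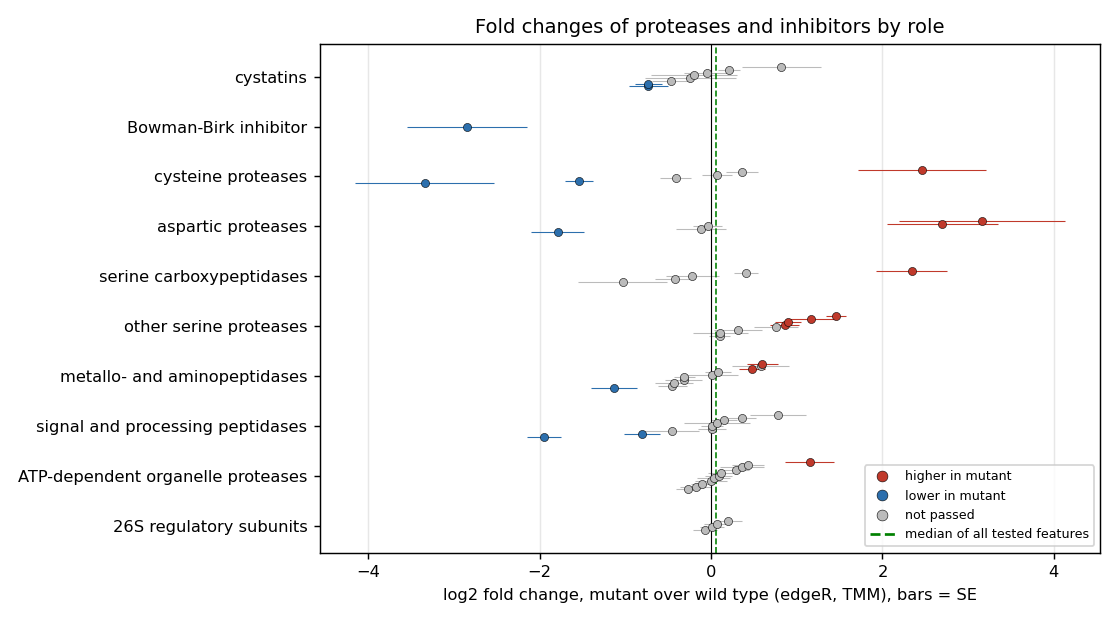
Log2 fold change (mutant minus wild type, TMM-normalized counts) of the 67 tested members, by role class. Each point is 1 gene, with its SE as a bar. Red points passed edgeR's test as higher in the mutant, blue points passed as lower, and grey points did not pass. The dashed line is the median of all tested features. Medians by class lie between -2.85 for the single Bowman-Birk inhibitor and 0.81 for the class of other serine proteases.

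By role, the 8 tested members of the class of other serine proteases all had positive values, with 4 passing and a median of 0.81. The shared sign holds only for this class as drawn. Glutamyl endopeptidase, Do-like 2 and Do-like 8 were moved into it by hand. Carboxyl-terminal-processing peptidases 1 (-0.80, called lower) and 3 (-0.46) were counted with the processing peptidases, and the Clp subunits with the organelle proteases. The 8 tested cystatins had a median of -0.22, with 2 lower and none higher, but with total-count scaling all 8 were positive and 4 were called higher, a scaling under which 71.8% of all tested features were called higher. Among 10 metallo- and aminopeptidases 2 rose and 1 fell, among 6 cysteine proteases 1 rose and 2 fell, and among 5 aspartic proteases 2 rose and 1 fell. Of 5 serine carboxypeptidases 1 rose, of 11 ATP-dependent organelle proteases 1 rose, of 9 signal and processing peptidases 2 fell, and of 4 regulatory subunits of the 26S protease none passed. These counts stand beside 15.8% higher and 15.4% lower over all tested features, and with so few genes to a class they are given as a description.

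The Bowman-Birk type bran trypsin inhibitor (RBBI3.3, OS01G0124401, chromosome 1, 1353705 to 1354767) was first among the members in wild-type seeds by mean FPKM, a level per gene length and library total. The table states no genome build for its coordinates. By mean normalized CPM in the wild type it was at 630.5, under cysteine proteinase inhibitor 1 at 720.6. Their wild-type ranges overlapped in both units. RBBI3.3 was at 24.2, 49.6 and 188.5 normalized CPM in the mutant and at 622, 479.7 and 789.7 in the wild type. No mutant library reached the lowest wild-type one, and mutant library 3 was the nearest to them. The gene fell by 2.85 on the log2 scale (SE 0.70, 7.21-fold, edgeR adjusted p = 0.018). Without mutant library 3 the value was -4.12, and the call was lost in the fits without mutant library 2 (0.071), wild-type library 1 (0.051) or wild-type library 3 (0.054); here and below, a value in parentheses after a left-out library is edgeR's adjusted p without it. The mutant libraries stood in the same order for this gene as for the starchy endosperm markers and for the embryo and aleurone markers; the part of those tissues in the fall was not tested.

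Cystatins were measured across a wide range of levels. Cysteine proteinase inhibitor 1, the rice oryzacystatin-I (OS01G0803200, chromosome 1, 34033159 to 34034924), measured 498.9, 421 and 382 normalized CPM in the mutant against 693.5, 709.5 and 759 in the wild type. The lines did not overlap, and relative to the typical gene it fell by 0.73 (SE 0.23, adjusted p = 0.041), whereas with total-count scaling its value was 0.51. The call was lost in 5 of the 6 fits that each left out a library, and kept without mutant library 1. With the replicate number as a block the adjusted p was 0.11.

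Cysteine proteinase inhibitor 3 (OS05G0409300, chromosome 5, 19983778 to 19987664) measured 71.6, 69.6 and 83.3 normalized CPM in the mutant and at 107.2, 132.9 and 131.2 in the wild type. It also fell by 0.73 (SE 0.16, adjusted p = 0.012), with no overlap between the lines, and its value was 0.47 with total-count scaling. Without mutant library 2 its adjusted p was 0.069.

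The other 6 tested cystatins did not pass. Cysteine proteinase inhibitor 12 was at 69.9, 84.0 and 122 normalized CPM in the mutant and at 126.6, 127.6 and 127.5 in the wild type, with a log2 fold change of -0.47 (adjusted p = 0.14). The wild-type libraries were nearly level and every mutant library was below them. Cysteine proteinase inhibitor 2, the rice oryzacystatin-II, was at 41.1, 39.0 and 35.6 in the mutant and at 29.7, 35.3 and 34.8 in the wild type, a value of 0.21 (adjusted p = 0.25). The oryzacystatins thus had values of opposite sign relative to the typical gene, one past the test and one not; the difference between them was not tested. Cysteine proteinase inhibitor 10 was at 8.99, 3.39 and 2.93 against 2.27, 2.76 and 3.63, and its value of 0.82 (adjusted p = 0.21) came with 1 mutant library above the other 5. Cysteine proteinase inhibitor 8 had a value of -0.05 (adjusted p = 0.91).

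Cysteine proteinase inhibitors 4 and 5 lie 1716 bases apart on chromosome 1 and varied more between mutant libraries than between lines. Inhibitor 4 (OS01G0915200) was at 23.8, 72.9 and 128.8 normalized CPM in the mutant and at 78.8, 74.2 and 105.6 in the wild type (log2 fold change -0.20, adjusted p = 0.79). Inhibitor 5 (OS01G0915401) was at 28.0, 55.0 and 137.2 against 61.9, 123.9 and 73.5 (-0.24, adjusted p = 0.76). In both genes mutant library 1 was lowest and mutant library 3 highest of the 6. Inhibitor 5 lies wholly inside another feature, OS01G0915300, over 447 bases; the 2 features hold 10586 and 9835 counts, and how reads were divided between them is not given in the sources used here. That second feature had a log2 fold change of 0.00 (adjusted p = 0.99). Of the remaining cystatins, inhibitor 11 had 7 counts in all, inhibitor 7 had 2, and inhibitor 9 had 0 in every library, which allows at most 3 counts per library.

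**Figure D2:**
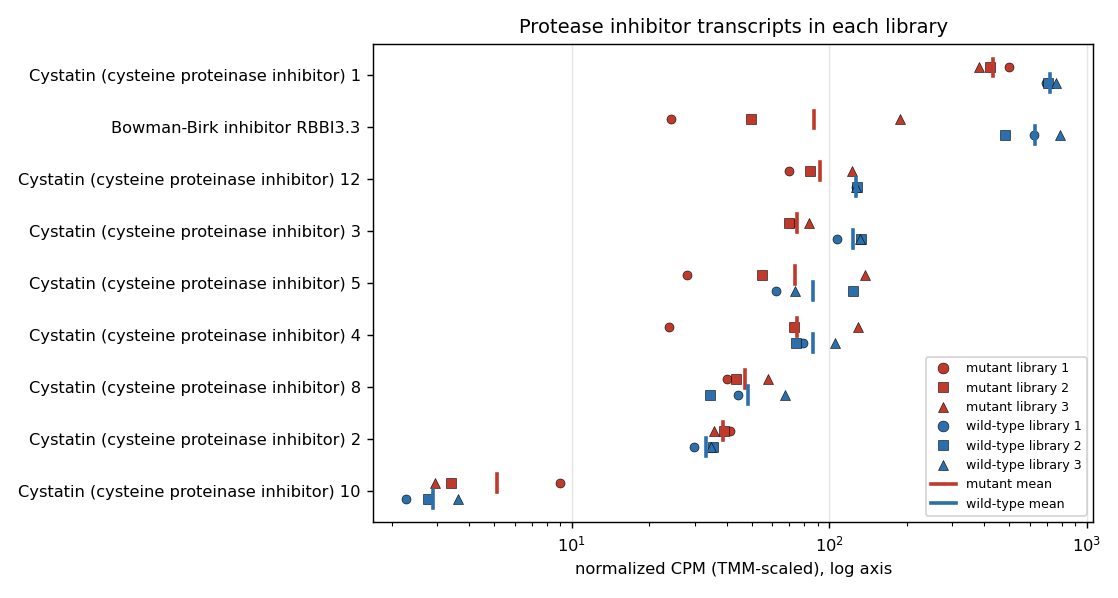
Normalized CPM (log axis) of the Bowman-Birk inhibitor and the tested cystatins in each of the 6 libraries (red mutant, blue wild type), with means as vertical bars. The Bowman-Birk inhibitor and cysteine proteinase inhibitors 1, 3 and 12 show all mutant libraries below all wild-type libraries.

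Among the cysteine proteases the largest difference was in RD19D (OS07G0480900, chromosome 7, 17496502 to 17498002) of the RD19 family, papain-type proteases first described as responsive to dehydration in Arabidopsis. It was at 2.46, 15.5 and 39.6 normalized CPM in the mutant and at 234, 149.3 and 198.5 in the wild type. The lowest wild-type library was above the highest mutant library, and mutant library 1 was far below the other mutant libraries. RD19D fell by 3.34 (SE 0.81, 10.1-fold, adjusted p = 0.017). The value was -4.45 without mutant library 3, and 2 fits lost the call, those without mutant library 2 (0.069) and without wild-type library 1 (0.054). As for the Bowman-Birk inhibitor, the order of the mutant libraries was that of the starchy endosperm and embryo markers, and the part of those tissues was not tested.

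**Figure D3:**
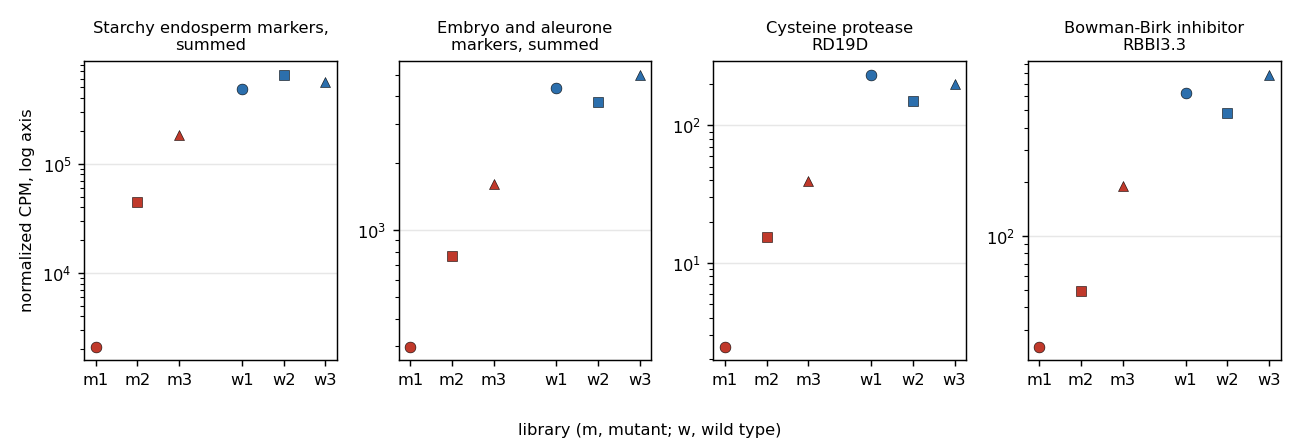
The Bowman-Birk inhibitor and RD19D beside the summed starchy endosperm and embryo and aleurone markers, in normalized CPM on a log axis, for each library. In all of these series mutant library 1 is lowest, mutant library 3 is the nearest to the wild type, and the 3 wild-type libraries are highest.

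Oryzain beta chain (OS04G0670200, chromosome 4, 34173356 to 34176732), a papain-type protease of rice seed, did not pass the test. It was at 109.2, 147.4 and 161.4 normalized CPM in the mutant and at 103.4, 121.4 and 100.8 in the wild type, with a log2 fold change of 0.36 (SE 0.19, adjusted p = 0.19). The lines overlapped. Within each library the ratio of RD19D to oryzain beta, in FPKM, which divides by gene length and by the library total, was 0.0371, 0.173 and 0.404 in the mutant and 3.72, 2.03 and 3.24 in the wild type. RD19D was thus the more abundant of the pair in every wild-type library and the less abundant in every mutant library, a statement that does not depend on scaling between libraries.

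Cysteine protease ATG4B (OS04G0682000, chromosome 4, 34816665 to 34820086) trims and recycles ATG8, the protein that coats autophagosome membranes. It was at 10.4, 14.0 and 14.0 normalized CPM in the mutant and at 38.6, 32.9 and 39.8 in the wild type. The lines were well apart, the libraries within each line were close, and the gene fell by 1.54 (SE 0.16, 2.9-fold, adjusted p = 0.00069). The call held in every fit that left out a library, with values of -1.40 to -1.63. With total-count scaling the value was -0.36 and did not pass (adjusted p = 0.16). Its paralog ATG4A was at 9.69, 7.63 and 9.57 in the mutant and at 9.01, 8.67 and 7.94 in the wild type (0.07, adjusted p = 0.78). The FPKM ratio of ATG4A to ATG4B within a library was 1.03, 0.603 and 0.759 in the mutant and 0.258, 0.292 and 0.221 in the wild type, with no overlap.

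Cysteine protease 1 (OS04G0670500), which lies 29262 bases from oryzain beta, had 34, 38 and 20 counts in the mutant libraries and 1, 0 and 5 in the wild-type ones. It rose with a log2 fold change of 2.46 (SE 0.75, adjusted p = 0.038) at a level under or near 1 normalized CPM throughout. The value was 4.23 without wild-type library 3, and the call was lost without mutant library 1 (0.065), mutant library 2 (0.13), wild-type library 1 (0.13) or wild-type library 2 (0.085). It was also lost with the replicate block (0.081). The Ufm1-specific protease, which processes a ubiquitin-like modifier, had a value of -0.41 (adjusted p = 0.13). Senescence-specific cysteine protease SAG39 had 0 counts in all libraries, so at most 3 counts per library.

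Set against the cystatins, the summed papain-type members were lower in the mutant. The sum held RD19D, oryzain beta, cysteine protease 1 and SAG39. With cysteine protease 1 under or near 1 normalized CPM and SAG39 without counts, it was in effect RD19D and oryzain beta. The ratio of summed FPKM of papain-type proteases to summed FPKM of cystatins was 0.0827, 0.112 and 0.103 in the mutant and 0.23, 0.148 and 0.173 in the wild type, a difference of -0.87 in log2. In counts the ratios were 0.144, 0.208 and 0.212 against 0.295, 0.218 and 0.23, a difference of -0.41. Every mutant library was below every wild-type one in both units, in counts only just (0.212 against 0.218). The fall in this ratio came with RD19D in the numerator: the ratio of oryzain beta alone to cystatins went the other way, at 0.0789, 0.0947 and 0.0733 in the mutant and 0.0487, 0.049 and 0.0406 in the wild type.

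Aspartic proteases split between an abundant pair that did not pass and rarer genes that did. Oryzasin-1 (OS05G0567100), an aspartic protease of rice seed, was at 329, 488 and 638 normalized CPM in the mutant and at 582, 451 and 550.4 in the wild type (-0.12 in log2, SE 0.29, adjusted p = 0.78). The lowest and the highest of the 6 libraries were both mutant. The member described only as aspartic proteinase (OS05G0137400) had a value of -0.04 (adjusted p = 0.88).

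Aspartic proteinase Asp1 (OS11G0184800) was at 26.2, 9.80 and 1.19 normalized CPM in the mutant and at 1.79, 0.729 and 1.64 in the wild type. Mutant library 3 lay among the wild-type libraries, so the lines overlapped, and the value of 3.16 (SE 0.97, adjusted p = 0.040) rested on mutant libraries 1 and 2. Without mutant library 1 it was 1.99 (adjusted p = 0.082); the call was also lost without mutant library 2 (0.075), without wild-type library 1 (0.10), 2 (0.13) or 3 (0.11), and with the replicate block (0.071). Aspartyl protease 25 (OS03G0186900) had the same order, at 13.4, 5.72 and 2.25 in the mutant and 1.38, 0.81 and 1.10 in the wild type, without overlap. It rose by 2.70 (SE 0.65, adjusted p = 0.016), or by 1.87 without mutant library 1, and the call was lost without wild-type library 1 (0.051), 2 (0.063) or 3 (0.060).

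ASPARTIC PROTEASE IN GUARD CELL 2 (OS04G0677100), named for a relative in Arabidopsis, was low in both lines, at 0.603, 0.795 and 0.75 normalized CPM in the mutant and 2.60, 2.51 and 2.33 in the wild type. The libraries of each line were tight and apart, and it fell by 1.79 (SE 0.31, adjusted p = 0.0044). The fall was kept in every fit without 1 library, and was -0.60 (adjusted p = 0.21) with total-count scaling. Aspartyl protease 37 had 7 counts in all and was not tested.

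Serine carboxypeptidases, vacuolar or secreted enzymes that take amino acids from the C-terminal end of proteins, included the member with the largest rise among those kept in every fit without 1 library. Serine carboxypeptidase-like 34 (OS02G0634700, chromosome 2, 25442875 to 25450093) measured 30.3, 16.0 and 13.1 normalized CPM in the mutant and at 5.52, 4.13 and 2.19 in the wild type. Every mutant library exceeded every wild-type library, and the log2 fold change was 2.34 (SE 0.41, 5.05-fold, adjusted p = 0.0049). Serine carboxypeptidase 3, the most abundant of the class, was at 63.1, 113.1 and 156.2 in the mutant and at 138.3, 141 and 107.6 in the wild type (-0.22, adjusted p = 0.62). Carboxypeptidase-like 29 had a value of 0.41 (adjusted p = 0.055). The FPKM ratio of carboxypeptidase 3 to carboxypeptidase-like 34 within a library was 2.81, 9.51 and 16.1 in the mutant and 33.7, 46.0 and 66.2 in the wild type.

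Of the subtilisin-like proteases, secreted serine enzymes of the apoplast, 2 of the 3 tested rose, beside 15.8% of all tested features. All 3 had every mutant library above every wild-type one, beside 25.3% of all tested features. With 3 genes this is a description. SBT1.3 (OS04G0573300, chromosome 4, 28874207 to 28881309) measured 58.0, 58.1 and 60.6 normalized CPM in the mutant and at 21.5, 22.6 and 20.0 in the wild type. The libraries within a line nearly coincided, and SBT1.3 rose by 1.46 (SE 0.12, 2.76-fold, adjusted p = 0.00029). It overlaps a copper chaperone gene, OS04G0573200, over 6890 bases; that gene moved the other way, with a value of -1.23 (adjusted p = 0.0066), and how reads in the shared stretch were assigned is not given in the sources used here.

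SBT1.6 (OS03G0242900) was at 23.6, 30.1 and 34.1 normalized CPM in the mutant and at 17.2, 15.6 and 15.5 in the wild type, and rose by 0.86 (SE 0.17, adjusted p = 0.0068). SBT1.5 was at 7.46, 12.2 and 14.9 against 7.31, 6.16 and 6.84, with a value of 0.76 that did not pass (adjusted p = 0.058). In SBT1.5 the lowest mutant library was only just above the highest wild-type one. SBT1.2 had 0 counts in all libraries.

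Tripeptidyl-peptidase 2 (OS02G0664300, chromosome 2, 26952898 to 26970251), a very large serine peptidase that trims peptides released by the proteasome, was at 108, 122.7 and 102.8 normalized CPM in the mutant and at 60.8, 62.9 and 54.7 in the wild type. The lines were apart and it rose by 0.90 (SE 0.15, 1.87-fold, adjusted p = 0.0035), in every fit without 1 library as well. Protease Do-like 2 of the chloroplast (OS05G0147500), of the family that degrades damaged photosynthetic proteins, was at 10.3, 7.23 and 5.49 in the mutant and at 2.84, 2.92 and 4.45 in the wild type. It rose by 1.17 (SE 0.30, adjusted p = 0.021), but not without mutant library 2 (0.058), wild-type library 1 (0.080) or wild-type library 2 (0.071). The remaining tested members of the class of other serine proteases did not pass. Their values were 0.10 for glutamyl endopeptidase, 0.11 for Do-like 8 and 0.32 for SPPA.

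Aminopeptidases M1-A and M1-B, zinc enzymes that remove single amino acids from the N-terminal end of peptides, both rose by small amounts. M1-A (OS02G0218200) was at 309, 344 and 313 normalized CPM in the mutant and at 212, 196 and 229 in the wild type, a log2 fold change of 0.60 (SE 0.18, adjusted p = 0.036). M1-B (OS08G0398700) was at 99.7, 120 and 122.6 against 80.6, 83.0 and 81.8, a value of 0.48 (SE 0.15, adjusted p = 0.041). In both genes the lines did not overlap. Neither call was firm: with the replicate block the adjusted p was 0.10 for M1-A and 0.095 for M1-B. M1-A was also lost without mutant library 2 or any 1 wild-type library (0.088 to 0.14), and M1-B in all 5 fits that left out a library other than mutant library 1 (0.082 to 0.15).

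EGY3 (OS03G0729000), a predicted membrane metalloprotease of the chloroplast, was at 1.86, 2.04 and 3.07 normalized CPM in the mutant and at 5.12, 4.30 and 5.75 in the wild type. It fell by 1.13 (SE 0.27, adjusted p = 0.017) relative to the typical gene, and its value was 0.02 with total-count scaling. The call was lost without mutant library 2 (0.073), wild-type library 1 (0.056) or wild-type library 3 (0.062). Its relatives EGY1 (-0.32, adjusted p = 0.31) and EGY2 (0.01, adjusted p = 0.98) did not pass. The other 5 metallo- and aminopeptidases that did not pass were between -0.45 for glutamate carboxypeptidase 2 and 0.58 for CAAX prenyl protease 2.

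The stromal processing peptidase (OS06G0625400, chromosome 6, 25200331 to 25210590), which cuts the transit peptide from proteins on entry into the plastid, had the smallest adjusted p among the members that fell. It was at 107.7, 115 and 123.6 normalized CPM in the mutant and at 474, 383 and 482.6 in the wild type. The 2 lines were far apart and the libraries within each were close. The gene fell by 1.95 (SE 0.20, 3.87-fold, adjusted p = 0.00058), between -1.90 and -2.06 in the fits without 1 library, and was still lower with total-count scaling (-0.76, adjusted p = 0.017).

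Carboxyl-terminal-processing peptidase 1 (OS01G0664000), of a family that matures a photosystem protein in chloroplasts, was at 6.60, 6.04 and 5.08 normalized CPM in the mutant and at 12.7, 8.43 and 9.78 in the wild type. It fell by 0.80 (SE 0.21, adjusted p = 0.022) relative to the typical gene and had a value of 0.42 with total-count scaling; the call was lost without mutant library 2 (0.077), wild-type library 1 (0.082) or wild-type library 3 (0.052). The 4 tested signal peptide peptidases, membrane enzymes that clear cut signal peptides, lay between 0.01 and 0.36 and none passed. Signal peptide peptidase-like 3 had 5 counts in all and was not tested. Mitochondrial intermediate peptidase had a value of 0.78 (adjusted p = 0.11), carboxyl-terminal-processing peptidase 3 of -0.46 (0.30) and the chloroplast processing peptidase of 0.07 (0.91).

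Among the ATP-dependent proteases of organelles only mitochondrial FTSH 3 passed. This membrane protease (OS01G0842600) was at 9.06, 8.48 and 5.66 normalized CPM in the mutant and at 3.33, 2.51 and 4.58 in the wild type, and rose by 1.15 (SE 0.29, adjusted p = 0.019). The lines did not overlap, and the call was lost without mutant library 2 (0.072), wild-type library 1 (0.068) or wild-type library 2 (0.058). The other 6 FTSH genes were between -0.27 and 0.43, and the 4 Clp subunits between -0.18 and 0.36. FTSH 4 and FTSH 5 lie 2446 bases apart on chromosome 1, at values of 0.43 (adjusted p = 0.11) and -0.10 (0.56). The 4 regulatory subunits of the 26S protease, ATPases that unfold proteins for degradation, were between -0.07 and 0.20. By compartment, 1 of 19 members described as chloroplastic rose and 3 fell, and 1 of 6 described as mitochondrial rose. The 3 chloroplastic falls are 15.8% of 19 and the mitochondrial rise 16.7% of 6, near the 15.4% lower and 15.8% higher of all tested features.

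**Figure D4:**
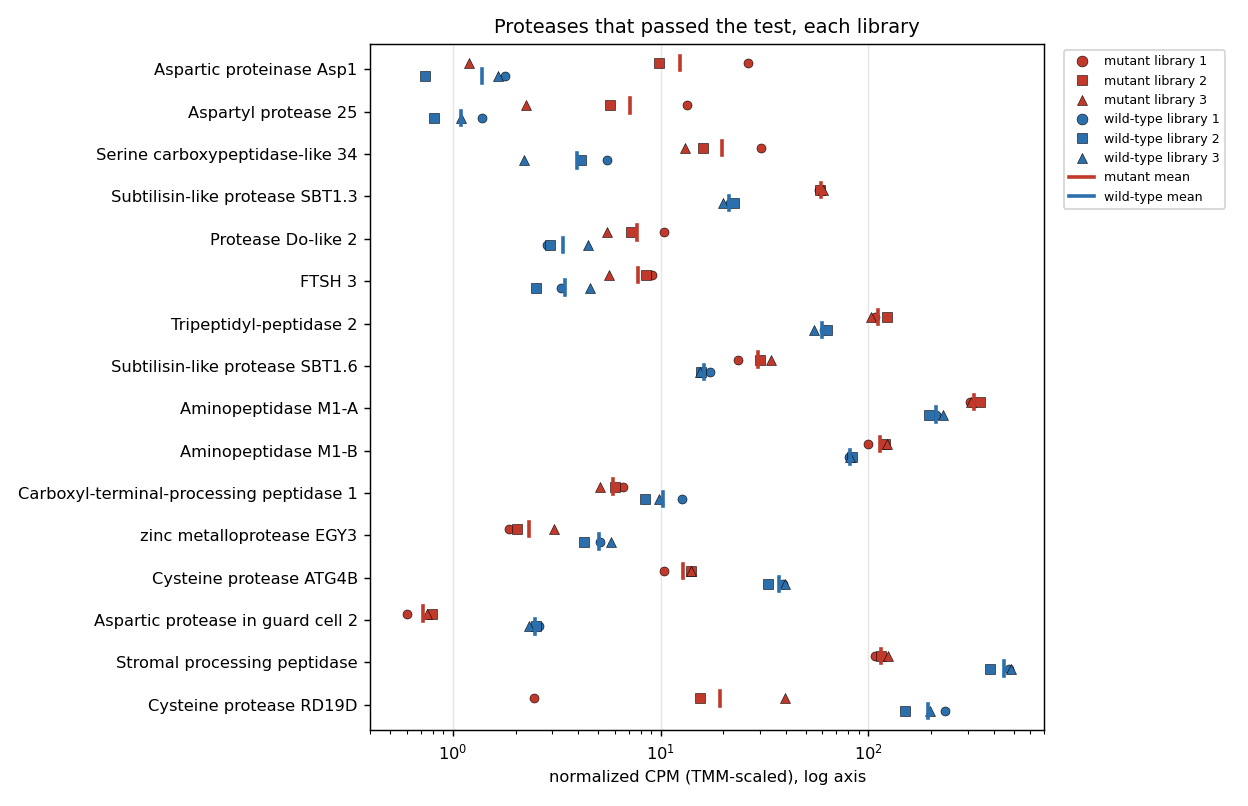
Normalized CPM (log axis) of the proteases that passed the test, other than cysteine protease 1 with its library at 0; each point is 1 library, vertical bars are means, and red is mutant and blue wild type. Asp1 is the one protease shown in which a mutant library lies among the wild-type libraries, and in SBT1.3 the libraries within each line nearly coincide.

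Of the 20 members that passed, 7 did so in every fit that left out 1 library: serine carboxypeptidase-like 34, SBT1.3, SBT1.6 and tripeptidyl-peptidase 2, which rose, and the stromal processing peptidase, ATG4B and ASPARTIC PROTEASE IN GUARD CELL 2, which fell. Those fits all used TMM scaling, and the share of all called features that they kept was not computed. With total-count scaling, ATG4B and ASPARTIC PROTEASE IN GUARD CELL 2 did not pass. Of the 20 calls, 13 were at least 2-fold. Among these, 7 were higher and 6 lower, beside 9.74% and 9.09% of all tested features at that size.

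Per length, the order of members also differed between the lines. In wild-type seeds the Bowman-Birk inhibitor was first at 395 ± 103 FPKM (SD, n = 3) and cysteine proteinase inhibitor 1 was next at 308 ± 18.8, and their ranges overlapped. Then came inhibitor 5 at 126.5 ± 40.9, below inhibitor 1 in every library, oryzasin-1 at 94.4 ± 17.9, RD19D at 91.8 ± 26, inhibitor 4 at 72.8 ± 14.2 and the stromal processing peptidase at 72.0 ± 12.4. From inhibitor 5 to the stromal processing peptidase, each overlapped the next. By the mutant mean, inhibitor 1 was first at 437 ± 160.1 and inhibitor 5 next at 222 ± 121.1, but in mutant library 3 inhibitor 5 (355 FPKM) was above inhibitor 1 (284 FPKM). In the same order of means, RD19D was 34th at 17.6 ± 14.6 and the stromal processing peptidase was 20th at 42.4 ± 7.30. FPKM is divided by the library total, so ranks within a line can be set side by side but levels between lines depend on that total. The median member was at 14.7 FPKM in the mutant and 5.42 in the wild type.

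Each class was also taken as a percent of the summed FPKM of all members in the same library, which no scaling between libraries changes. Cystatins were 37.9 ± 2.64% in the mutant and 35.8 ± 3.64% in the wild type (SD, n = 3), and overlapped. The Bowman-Birk inhibitor was 3.88 ± 3.35% against 20.8 ± 3.68%, and cysteine proteases were 4.81 ± 0.618% against 7.68 ± 0.95%. Both were below the wild type in every mutant library. Aspartic proteases (10.5 ± 0.717% against 7.2 ± 0.683%), metallo- and aminopeptidases (11.6 ± 1.49% against 6.7 ± 0.353%) and the class of other serine proteases (3.92 ± 0.625% against 1.49 ± 0.146%) were above it in every mutant library. So were the organelle proteases, the 26S subunits and the serine carboxypeptidases, while the signal and processing peptidases overlapped. These percents add up to the whole, so a smaller share of one class raises the others. Within the cystatins, inhibitor 1 made up 54.1%, 40.5% and 26% of the summed cystatin FPKM in the mutant and 49.0%, 42.9% and 45.9% in the wild type.

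**Figure D5:**
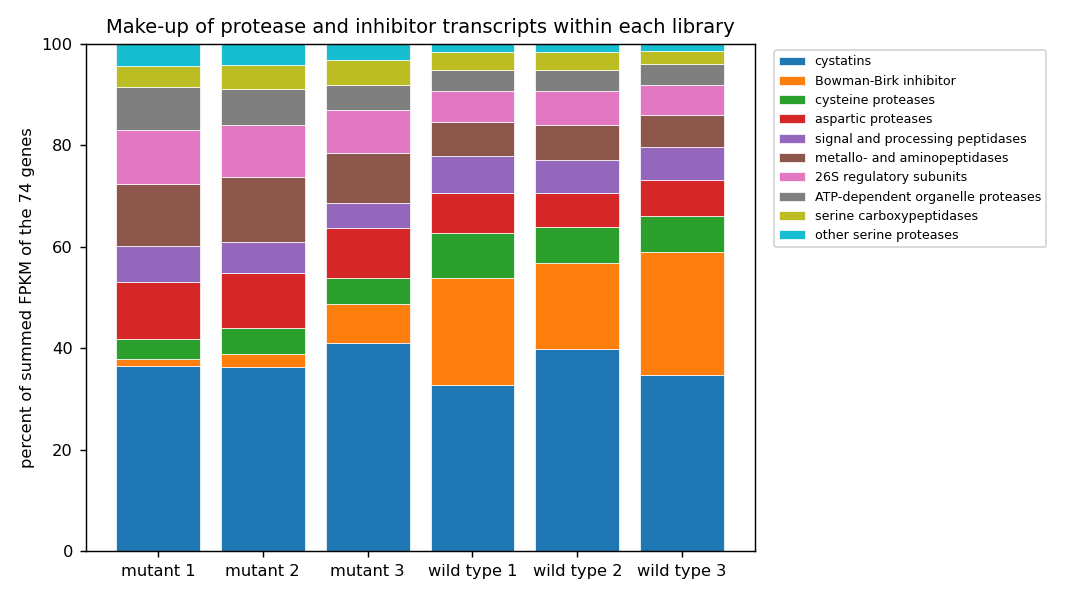
Share of the summed FPKM of all members (percent) taken by each role class, in each of the 6 libraries. The Bowman-Birk inhibitor takes 20.8 ± 3.68% in the wild-type libraries and 3.88 ± 3.35% in the mutant libraries (mean ± SD, n = 3), while the cystatin shares overlap.

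All members together took 0.645%, 0.595% and 0.49% of the mutant counts and 0.36%, 0.291% and 0.348% of the wild-type counts. Outside storage protein and seed allergen features the shares were closer, at 0.647%, 0.641% and 0.624% against 0.571%, 0.516% and 0.574%, with every mutant library still above. With that total 43.9% of all tested features were called higher and 6.97% lower, so a higher share was not particular to the members. Mutant library 3 was the nearest of the mutant libraries to the wild-type mean in 29 of the 67 tested members, or 43.3%, beside 47.5% of all tested features.

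Protein-degrading and inhibitor genes outside the rule were read from the same fit. Vacuolar-processing enzyme beta-isozyme 1 (OS04G0537900), the protease that matures glutelins, was at 194.5, 221 and 269.6 normalized CPM in the mutant and at 259, 260.1 and 245 in the wild type (-0.16, adjusted p = 0.56). None of the 5 tested serpins, a family of suicide inhibitors of proteases, passed; the most abundant, serpin-ZXA, had a value of 0.25 (adjusted p = 0.46). Of 4 trypsin or subtilisin inhibitors of the alpha-amylase group, 3 fell (75.0%, beside 15.4% of all tested features), from -3.88 to -5.25. The alpha-amylase/subtilisin inhibitor did not pass (-1.10, adjusted p = 0.20).

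Of 11 autophagy genes, whose pathway ATG4 serves, 5 fell (45.5%, beside 15.4% of all tested features) and none rose (beside 15.8%). These were ATG18f (-2.12, adjusted p = 0.00028), ATG11 (-1.81, 0.00044), ATG8B (-1.67, 0.0011), ATG18a (-0.87, 0.0043) and ATG18b (-0.79, 0.037). With total-count scaling 3 of the 11 were lower and 6 higher, beside 3.77% and 71.8% of all tested features, and ATG18a (0.36) and ATG18b (0.37) changed sign. ATG8B, a substrate type of ATG4, was at 16.9, 21.1 and 27.0 normalized CPM in the mutant and at 72.8, 57.5 and 76.8 in the wild type, apart in the same direction as ATG4B. The more abundant ATG8A (-0.13, adjusted p = 0.53) and ATG8C (-0.44, 0.053) did not pass. Of 13 proteasome subunits 5 rose (38.5%, beside 15.8% of all tested features) and 1 fell (7.69%, beside 15.4%), with values up to 0.95 for alpha type-4-2 (adjusted p = 0.0040) and 0.86 for alpha type-1 (0.0035). The 1 that fell, alpha type-3 (-0.58, adjusted p = 0.028), had a value of 0.60 with total-count scaling. Of 5 Clp chaperones, partners of Clp proteases, 1 fell (20.0%, beside 15.4% of all tested features) and the others did not pass. The 1 that fell was mitochondrial ClpB3 (-1.56, adjusted p = 0.00091, and -0.36 with total-count scaling).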

How the data were processed

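The data were 6 RNA-seq libraries of rice seeds, grouped by their genotype label and line. Per the labels' protocols, total RNA was extracted with a plant column kit and libraries followed standard Illumina procedures. Bowtie 0.12.2 is listed, with no role, per the submitters' processing notes; a counting tool, genome build, annotation and strand use were not given in the sources used here. The authors deposited 1 table with read counts and FPKM per feature, per the file headers.

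Counts were tested with edgeR 4.0.16 in R 4.3.3 (TMM factors, filterByExpr, quasi-likelihood test, line as the only term, Benjamini-Hochberg over 22937 features at 0.05). SE is the absolute log2 fold change over the square root of F. The test was checked on simulated counts with few changed genes and an even, low spread. That check does not cover the replicate spread or the scaling shift of these libraries. Of the 74 members, 7 were not tested: 3 without a count and 4 under the count filter. TMM factors were 1.88, 1.57 and 1.16 in the mutant and 0.715, 0.627 and 0.652 in the wild type. A count of 0 allows up to 3 counts, equal to 0.0753 to 0.102 normalized CPM for mutant and 0.205 to 0.244 for wild-type libraries; this covers counting error only. No replicate pair agreed within sampling noise (chi-square per feature of 10.16 to 341.2).

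Role classes were set by words of the description, and 5 members were moved by hand. The members and lists were chosen with earlier results of these data known. Genes named were called members with non-overlapping lines, the 3 most abundant of each class, and every cystatin, oryzain, oryzasin and Bowman-Birk gene with a count; others were named after their values were seen. Alternatives used DESeq2 1.42.0, limma 3.58.1 (log2 of FPKM + 1), other scalings and filters, and fits without each library. Cystatin protein features and promoter motifs were not analysed here.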

Additional observations from a re-analysis of the deposited data

How the results depend on the processing

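Calls depended most on scaling. The 11 members called higher became 53 with total-count scaling, 38 with that scaling after storage and allergen features were left out, 50 with limma on log2(FPKM + 1), 7 with the replicate block and 4 at an adjusted p of 0.01, and were 4 to 12 in fits without 1 library. The 9 called lower became 3, 5 and 3 under the first 3 of these and 3 at 0.01, and were 3 to 10 without 1 library. The median of 0.03 was 1.26, 0.66 and 1.12 under those scalings, 0.12 with upper-quartile factors, 0.18 with no filter, 0.08 with a mean of at least 5 CPM, 0.09 with the DESeq2 Wald test, and 0.01 to 0.07 without 1 library. The papain-type to cystatin ratio was -0.41 in counts against -0.87 in FPKM.

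Of the 29 tested members with a negative value, 24 were positive with total-count scaling, 19 with that scaling without storage features, and 23 of 27 with limma on FPKM; no positive value turned negative there. Examples, with total-count scaling and with limma on FPKM, were FTSH 5 (1.11 and 1.01), oryzasin-1 (1.0 and 1.01), aspartic proteinase OS05G0137400 (1.2 and 1.12), cysteine proteinase inhibitors 1 (0.51 and 0.44), 3 (0.47 and 0.45), 8 (1.12 and 1.15) and 12 (0.67 and 0.66), Ufm1-specific protease (0.76 and 0.7), EGY1 (0.83 and 0.79), EGY3 (0.02 and 0.02), serine carboxypeptidase 3 (0.89 and 0.86) and carboxyl-terminal-processing peptidase 1 (0.42 and 0.34). Without storage features, FTSH 5 was 0.51 and OS05G0137400 was 0.58. With total-count scaling 71.8% of all tested features were called higher, and 43.9% with storage and allergen features left out of that total. The part of storage transcripts in this shift was not tested. DESeq2's Wald test and TMM without storage features (added after seeing the data) kept all 20 calls; limma-voom kept 18.

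The same replicate number did not pair libraries (correlations of deviations 0.0678, -0.043 and -0.0251); the replicate block kept 15 of the 20 calls, and the cause was not tested. Fits without mutant library 2 or wild-type library 1 kept 8 each. Depth limits members under about 1 normalized CPM.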
